A study of Mus musculus with 3 samples.

Results

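The 10 antiviral interferon-stimulated genes Ddx58, Ifih1, Ifit1, Ifit2, Ifit3, Isg15, Usp18, Oasl2, Rsad2 and Mx2 were examined for H3K4me1, the monomethylation of lysine 4 on histone 3, in cytokine exposed mouse islets. They are 10 of the 22350 protein-coding genes annotated in GENCODE M1 on chromosomes 1 to 19 and X of the mm9 genome. An enriched region was counted at a gene when it overlapped the gene or when its nearest edge lay within 20 kb of any annotated transcription start site (TSS) of that gene. By this rule 31 of the 65709 deposited regions lay at the 10 genes, and each of the 10 had at least 1 region, whereas 76.4% of all protein-coding genes had one.

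Pancreatic islets hold the hormone-secreting cells of the pancreas, and in the mouse the insulin-producing β-cells are the most abundant of these. They were cultured whole and unsorted for 4 days with IFNγ at 1.6 ng/ml, TNFα at 0.16 ng/ml and IL-1β at 0.25 ng/ml, after which H3K4me1-bearing chromatin was precipitated with an antibody and its DNA sequenced. The sample labels give CD1 mice aged 8 to 12 weeks, and the methods of the study call the mice ICR, give a narrower age range and pool animals of both sexes. DNA of separate precipitations went into 1 library, so there is no replicate, no value below carries an error over replicates, and no difference was tested. The list gives only where each region starts and ends, on a grid of 200 bp. It holds no read count or height, so that the depth is unknown and a position outside every region can be unmarked or under the calling threshold. H3K4me1 of untreated islets and transcript levels were not analysed here, and the regions below therefore describe the cytokine exposed state alone, with nothing on which of them the cytokines changed.

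H3K4me1 marks enhancers and the flanks of promoters that are active or poised, and it is often low at the start site of a strongly used promoter, where nucleosomes are displaced or carry trimethylation instead. Type I interferons act through a complex that contains STAT2 and IRF9 and binds the interferon-stimulated response element (ISRE), whereas the response to IFNγ runs mainly through the gamma activated sequence (GAS). The genes switched on in this way include cytosolic sensors of viral RNA, proteins that block viral translation or replication, and the ubiquitin-like protein ISG15 with the enzymes that attach and remove it. In β-cells the response is known for its part in viral infection of islets and in type 1 diabetes, and variants of the human IFIH1 gene are associated with that disease.

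The tissue was checked by its markers. Over all protein-coding genes 39.1% had a TSS inside a region, 22.9% had none inside but a region within 2 kb, and 38.0% had neither, and the median length under regions within 20 kb of the TSS was 3.0 kb. Of 12 islet markers, 3 had a TSS inside a region (Ins2, Slc2a2 and Slc30a8), 6 had a region within 2 kb of a TSS and 3 had neither (Iapp, Gcg and Sst, of which Gcg had no region at all), and their median covered length was 12.1 kb. Their covered share was thus below that of all genes, while their flanked share and covered length were above. Ins2 was covered only away from its main TSS, which had no region within 2 kb, and its covered length was 1.79 kb. Of 12 leukocyte markers only Cd68 had a TSS inside a region, the other 11 had none within 2 kb, and 5 of them had no region at all (Cd3e, Itgam, Emr1, Lyz2 and Cx3cr1). Their covered length ran from 0 to 12.6 kb, with a median of 0.300 kb. Among 6 endothelial and stromal markers 5 had a covered TSS (Pecam1, Kdr, Tek, Col1a1 and Pdgfra), a larger share than among all genes, Cdh5 had no region, and the median covered length was 3.20 kb. At Col1a1 the covered TSS was not the main one, which had a region 463 bp downstream. Among 6 exocrine markers Krt19 alone had a covered TSS, the other 5 (Cpa1, Prss1, Cela1, Amy2b and Ptf1a) were bare, of which Prss1 and Amy2b had no region, and the median was 1.30 kb. In a mixed tissue a mark carried by few cells at a high level and by many cells at a low level cannot be told apart, and the part that the non-endocrine cells had in the regions described here was not tested.

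The sequences just before the start sites of 5 of the genes are shown first, because the position of the ISRE relative to the marked chromatin differs between them. They come from the mm9 reference genome (NCBIM37), are written from 5′ to 3′ on the strand of the gene and end at the base before its first annotated TSS. Capitals mark the core of an ISRE, which was taken as GAAA, 2 bases of any kind and GAAA on either strand, with overlapping matches all kept. A match is a match of letters and does not show that a factor binds there.

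Ifit1, chr19:34715234-34715360, + strand, outside every region: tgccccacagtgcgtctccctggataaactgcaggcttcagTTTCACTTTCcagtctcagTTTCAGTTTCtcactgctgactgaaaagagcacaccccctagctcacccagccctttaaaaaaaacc

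Ifit3, chr19:34657861-34658020, + strand, outside every region: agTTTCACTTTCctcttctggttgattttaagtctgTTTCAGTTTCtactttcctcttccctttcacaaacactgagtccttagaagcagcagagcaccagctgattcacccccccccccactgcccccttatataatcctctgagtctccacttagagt

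Usp18, chr6:121195764-121195923, + strand, outside every region: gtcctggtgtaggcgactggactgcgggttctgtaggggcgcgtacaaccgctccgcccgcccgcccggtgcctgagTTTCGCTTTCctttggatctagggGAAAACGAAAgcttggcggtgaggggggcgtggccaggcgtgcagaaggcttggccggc

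Rsad2, chr12:27141318-27141477, - strand, 51.9% inside a region: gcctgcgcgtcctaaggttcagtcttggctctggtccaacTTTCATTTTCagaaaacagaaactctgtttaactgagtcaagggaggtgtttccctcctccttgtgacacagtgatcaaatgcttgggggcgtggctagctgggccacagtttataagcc

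Isg15, chr4:155574928-155575087, - strand, wholly inside a region: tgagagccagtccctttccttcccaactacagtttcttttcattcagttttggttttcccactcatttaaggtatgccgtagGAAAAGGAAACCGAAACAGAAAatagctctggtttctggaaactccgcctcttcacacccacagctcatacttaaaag

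Each TSS was then classed as covered when it lay inside a region, as flanked when no TSS of the gene was covered but a region edge lay within 2 kb of one, and as bare otherwise. Distances are counted from the main TSS, which is that of the protein-coding transcript with the longest coding sequence, with negative values upstream. Of the 10 genes, 6 were covered (60.0%), 3 were flanked (30%) and 1 was bare (10%). The same classes held 39.1%, 22.9% and 38.0% of all protein-coding genes, with 95% exact binomial intervals of 38.5 to 39.8%, 22.3 to 23.4% and 37.3 to 38.6% that cover counting error only. The covered genes were Ifih1, Ifit2, Isg15, Oasl2, Rsad2 and Mx2, the flanked genes were Ddx58, Ifit1 and Usp18, and Ifit3 was bare. With regions grown by 200 bp at each end, Ddx58 and Ifit1 became covered, which made 8 covered and 1 flanked.

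**Figure D1:**
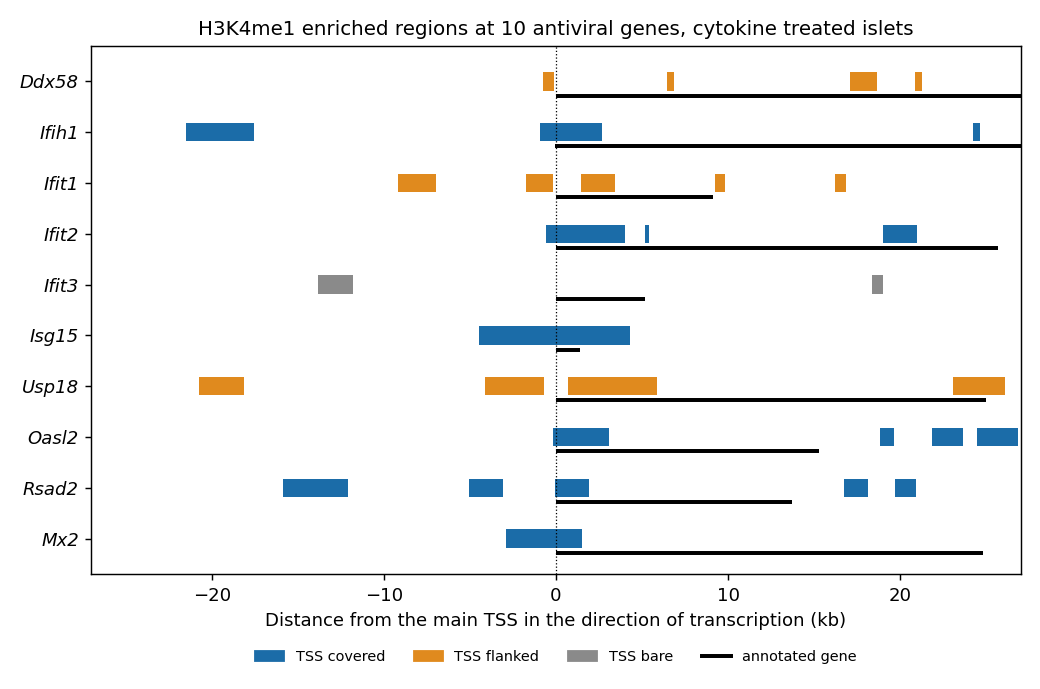
H3K4me1 enriched regions (coloured blocks) at the 10 genes by distance from the main TSS in kb, with the annotated gene as a black line and all genes turned to run to the right. Regions of the 6 genes with a covered TSS are blue, those of the 3 flanked genes orange, and those of Ifit3, whose TSS is bare, grey.

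The cytosolic RNA sensors came first. Ddx58 encodes RIG-I, which recognises the ends of viral RNA, and Ifih1 encodes MDA5, which recognises long double-stranded RNA. Ddx58 (ENSMUSG00000040296.8, chr4:40150806-40186861, - strand) had 4 regions, which covered 2.60 kb within 20 kb of the main TSS. None of its 10 TSS positions was covered. A region of 600 bp outside any gene (chr4:40187001-40187600) ended 140 bp before the main TSS, a distance shorter than 1 step of the grid. Downstream the next region began at 6461 bp, was 400 bp wide and lay in an intron, so that the start site stood in a stretch of 6600 bp without a region, in which 78.1% of all 32 bp words occur once in the genome. The widest region of Ddx58, at 1600 bp, spanned coding exon and intron from 17061 bp on (chr4:40168201-40169800). The marked chromatin at this gene was thus in short pieces, with a median width of 500 bp.

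Ifih1 (ENSMUSG00000026896.7, chr2:62433850-62484312, - strand) had its start sites inside 1 region of 3600 bp (chr2:62481601-62485200), which ran from -932 to 2667 bp and took in both annotated TSS positions. A second region of 4000 bp lay at -21532 to -17533 bp and covered the TSS of the neighbouring gene Gca, which encodes grancalcin. The third was 400 bp wide and lay in an intron, 24268 bp downstream. Ifih1 had 6.07 kb under regions within 20 kb, more than Ddx58, and its start region alone was wider than the whole covered length of Ddx58.

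The IFIT proteins are a family of interferon-induced RNA-binding and scaffold proteins, of which Ifit1 is known for binding RNA that lacks the host's cap methylation. Ifit2, Ifit3 and Ifit1 lie in this order on the + strand of chromosome 19, with 3 other annotated protein-coding genes between them, in a cluster of 99.3 kb (chr19:34625184-34724499) that held 8 regions covering 14.2 kb, or 14.3% of its length. Ifit2, Ifit3 and Ifit1 fell into 3 different classes. Of the genes between them, Gm14446 was covered, and I830012O16Rik and 2010002M12Rik were flanked. Ifit2 (ENSMUSG00000045932.6, chr19:34625184-34650909) was covered at both TSS positions by a region of 4600 bp (chr19:34624601-34629200), which ran from -599 to 4000 bp. It had 1 further intronic region of 200 bp and 1 of 2000 bp at its 3′ part (chr19:34644201-34646200), which spans coding sequence, UTR and intron. Nearly all of its covered length was downstream of the TSS, with 5.20 kb against 0.599 kb upstream.

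Ifit3 (ENSMUSG00000074896.3, chr19:34658021-34663221) was the only gene of the 10 with a bare TSS and with no part of the gene body covered. The region nearest to its TSS was the one in the 3′ part of Ifit2, whose edge lay 11821 bp upstream, and the other, of 600 bp, covered the TSS of Gm14446 at 18380 bp downstream. The stretch without a region around the Ifit3 TSS was 30200 bp long, and 67.4% of its 32 bp words occur once in the genome. Outside regions within 20 kb of the TSS this share was 70.2% at Ifit3 and 67.9% at Oasl2, whose TSS was covered. Close to the start site, sequence at Ifit3 is repeated in the genome, which limits where short reads can be placed. Of all 32 bp words within 2 kb of its main TSS only 34.9% occur once in the genome, whereas the other 9 genes had between 82.4% (Oasl2) and 98.5% (Ifih1). The copy is close by, since 1986 of these 4001 words (49.6%) also occur within 2 kb of the main TSS of I830012O16Rik, a gene of the same cluster 24400 bp away. I830012O16Rik itself was flanked, with its nearest region edge at 1021 bp. How reads with several positions were treated is not given in the sources used here, and the part of repeated sequence in the lack of a called region at Ifit3 was not tested.

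Ifit1 (ENSMUSG00000034459.8, chr19:34715361-34724499) was flanked on both sides. One region of 1600 bp ended 161 bp before the TSS (chr19:34713601-34715200) and another of 2000 bp began 1440 bp after it, in the intron (chr19:34716801-34718800), which left a gap of 1600 bp around the start site. Sequence in the gap is largely unique, as 98.3% of its 32 bp words occur once in the genome. The gap also holds the main TSS of 2010002M12Rik, which is transcribed away from Ifit1 and was flanked with an edge at 33 bp. The 127 bp between the 2 genes are printed above and hold both ISRE cores of Ifit1, at -86 to -77 bp and at -67 to -58 bp. Ifit1 had 5 regions in all, as many as any of the 10 genes. Besides the pair at the gap they comprised 1 of 2200 bp in an intron of 2010002M12Rik and 2 of 600 bp beyond the 3′ end of Ifit1.

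Isg15 encodes the ubiquitin-like modifier and Usp18 the protease that removes it from proteins and that also restrains signalling at the type I interferon receptor. Isg15 (ENSMUSG00000035692.6, chr4:155573533-155574927, - strand) is the shortest of the genes at 1.40 kb and lay wholly inside 1 region of 8800 bp (chr4:155570601-155579400), the widest of the 31. This region ran from -4473 to 4326 bp. It also covered start sites of Agrn, which encodes the basement membrane protein agrin, and of AW011738, so that its marked chromatin cannot be assigned to Isg15 alone. A single wide region thus gave Isg15 a count that ranked at percentile 30.1 of all protein-coding genes and a covered length that ranked at percentile 80.9, with ties shared equally.

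Usp18 (ENSMUSG00000030107.9, chr6:121195924-121220934, + strand) had the longest covered length of the 10 genes, 10.5 kb within 20 kb of the TSS or percentile 85.7, although its only TSS was not covered. A region of 3400 bp outside any gene (chr6:121191801-121195200) ended 724 bp before the TSS, and an intronic region of 5200 bp (chr6:121196601-121201800) began 677 bp after it. The gap of 1400 bp between them held both ISRE cores, and 100% of its 32 bp words occur once in the genome. The covered length was nearly even on both sides, with 5.28 kb upstream and 5.20 kb downstream. A region of 3000 bp lay at the 3′ end of Usp18, and 1 of 2600 bp ended at -18124 bp, where it overlapped Tuba8 and covered the TSS of Gm15856. Ifit1 and Usp18 were thus 2 of 10 genes with an uncovered main TSS and a region within 2 kb on either side of it, an arrangement found at 10.2% of all protein-coding genes.

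**Figure D2:**
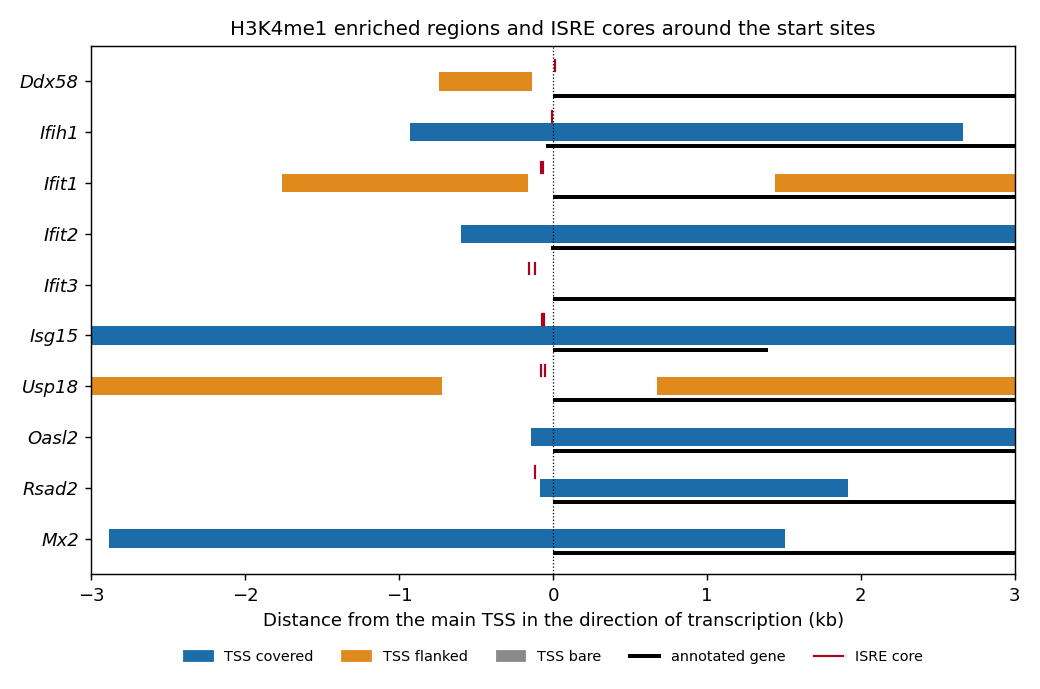
The 3 kb on either side of each main TSS, with H3K4me1 enriched regions as blocks, the annotated gene as a black line and ISRE cores within 250 bp before to 50 bp after the TSS as red ticks. The cores of Isg15 and Ifih1 lie inside a region, while those of Ifit1 and Usp18 lie in the gap between 2 regions and those of Ddx58, Ifit3 and Rsad2 also lie outside.

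Oasl2, Rsad2 and Mx2 encode effectors of other kinds. Oasl2 is a member of the oligoadenylate synthetase family. Its gene (ENSMUSG00000029561.10, chr5:115346943-115362243, + strand) had 6 of its 8 TSS positions inside a region of 3200 bp (chr5:115346801-115350000) that ran from -144 to 3055 bp. Almost all of its 4.00 kb of covered length was downstream, with 0.144 kb upstream. The other 3 regions of Oasl2 lay beyond its 3′ end, and the farthest, of 2400 bp (chr5:115371401-115373800), covered start sites of its paralog Oasl1 and of Gm13822.

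Rsad2 encodes viperin, which makes a chain-terminating nucleotide that stops viral RNA synthesis. The gene (ENSMUSG00000020641.8, chr12:27127618-27141317, - strand) had all 4 of its TSS positions inside a region of 2000 bp (chr12:27139401-27141400), which began 83 bp before the main TSS. It had 5 regions and 9.48 kb of covered length, of which 5.88 kb was upstream, the most of any of the 10 genes. Of the upstream regions 1 of 2000 bp was outside any gene and ended at -3084 bp, and 1 of 3800 bp (chr12:27153401-27157200) covered the TSS of Cmpk2, a neighbour that encodes a nucleotide kinase. Cmpk2 was covered, with 4 regions and 8.87 kb, the region counted at Rsad2 included.

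Mx2 encodes a dynamin-like GTPase that acts against viruses. Its single TSS (ENSMUSG00000023341.8, chr16:97757690-97782506, + strand) lay inside its only region, which was 4400 bp wide (chr16:97754801-97759200) and ran from -2889 to 1510 bp. No other region lay in the rest of the gene, so that 6.09% of its length was covered. Like Isg15, Mx2 thus had its marked chromatin in 1 piece at the start site, but that piece covered no TSS of another gene.

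Over all 10 genes, covered length within 20 kb of the main TSS ranged from 2.60 kb (Ddx58 and Ifit3) to 10.5 kb (Usp18), with a median of 5.93 kb. The median over all protein-coding genes was 3.0 kb, with quartiles of 0 and 7.17 kb, and 8 of the 10 genes were above that median. The median number of regions was 3.50 at the 10 genes, with a range of 1 to 5, and 2 over all genes, and 7 of the 10 were above it. These shifts describe the list and were not tested, and gene length was longer at the median too, at 20.1 kb against 15.4 kb. The order by covered length and the order by region count differed, since Isg15 and Mx2 had 1 region each but more covered length than Ddx58 with 4. The median covered length was 3.14 kb upstream and 3.40 kb downstream of the TSS, against 0.799 kb and 1.37 kb over all genes. Within single genes the downstream side had more in 3 of 10 (46.3% of all genes), and these were Ddx58, Ifit2 and Oasl2. The share of all genes counts those with no covered length on either side, so the 2 shares have unlike bases.

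**Figure D3:**
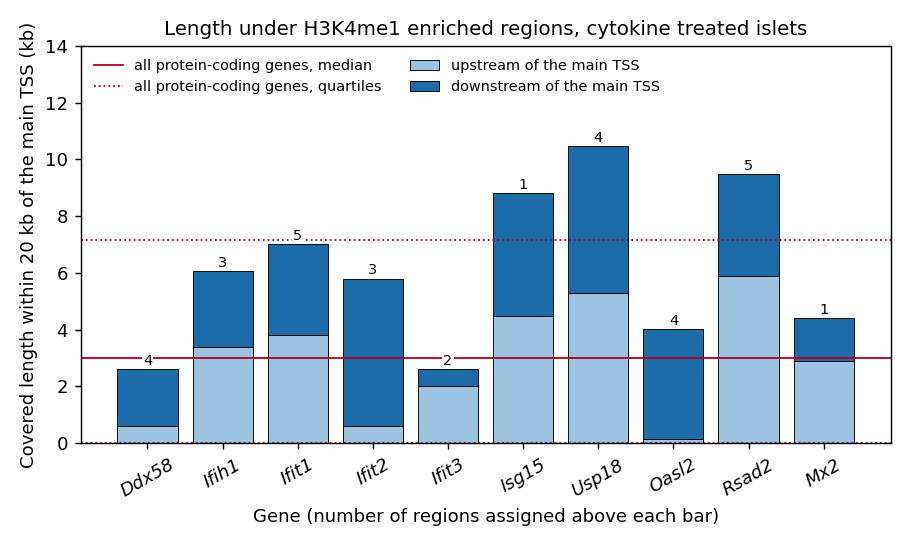
Length under H3K4me1 enriched regions within 20 kb of the main TSS of each gene in kb, split into upstream (light) and downstream (dark), with the number of regions above each bar. The solid and dotted lines are the median (3.0 kb) and quartiles (0 and 7.17 kb) of all protein-coding genes, and Isg15, Usp18 and Rsad2 stand above the upper quartile.

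By position, the marked share of the 10 genes was highest just inside the genes. A region covered the main TSS of 6 of the 10 genes, 7 were covered at 800 bp and at 1200 bp downstream, and 8 at 1500 bp, the only step of 100 bp with more than 7. Over all protein-coding genes these shares were 31.3% at the TSS, 32.2%, 32.6% and 31.5%, nearly level over this stretch. Upstream, 4 of the 10 genes were covered at 1600 bp and 3 at 4000 bp, where all genes had 15.2% and 8.51%. At 4400 bp downstream 1 of the 10 genes was covered, against 15.2% of all genes.

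**Figure D4:**
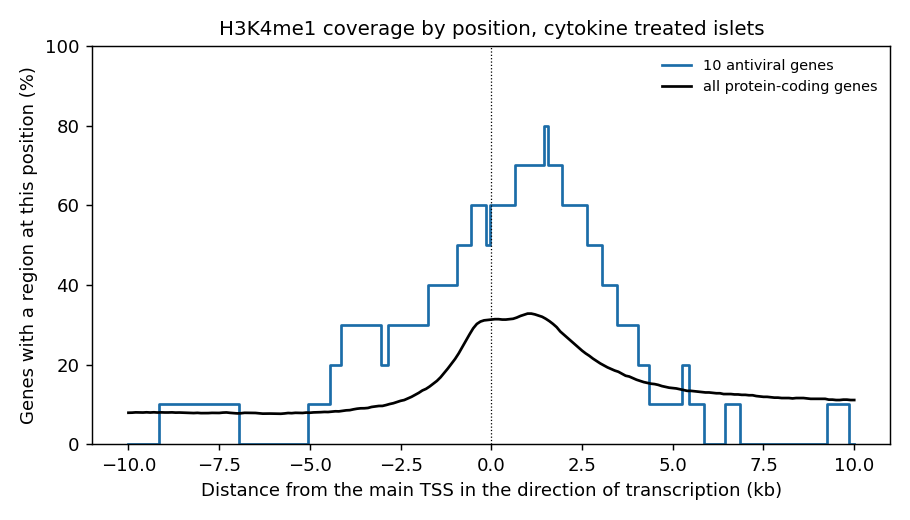
Percent of genes with an H3K4me1 enriched region at each distance from the main TSS (kb, direction of transcription to the right), for the 10 antiviral genes (blue) and for all protein-coding genes (black). With 10 genes, 1 gene is 10%, and the blue line reaches 80.0% at 1500 bp where the black line is at 31.5%.

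The 31 regions were 200 to 8800 bp wide with a median of 2000 bp, and the median over all 65709 regions, wherever they lie, was 1200 bp. The width of regions picked by the same rule at all protein-coding genes was not computed. Of the 31, 6 covered a TSS of one of the 10 genes, 6 covered the TSS of another gene, and the region at Isg15 did both. The other 20 covered no TSS. Introns of the 10 genes wholly contained 6 of these, and 8 of the 31 overlapped no annotated gene. Regions that overlapped 1 of the 10 genes without reaching its TSS numbered 9, and 1 region, in the 3′ part of Ifit2, was counted at 2 of the genes.

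Promoter letters were counted in the window from 250 bp before to 50 bp after the main TSS. An ISRE core occurred in 7 of the 10 genes and in 3.86% of all protein-coding genes (862 of 22350), and at least 2 cores occurred in Ifit1, Ifit3, Isg15 and Usp18 and in 0.407% of all genes. The cores TTTCACTTTC and TTTCAGTTTC stood in this order in both Ifit1 and Ifit3. Those of Isg15 formed a run of 3 that overlap each other. No core was found in the windows of Ifit2, Oasl2 and Mx2, which says only that these letters are not there. The core of the GAS, taken as TTC, 3 bases of any kind and GAA, was in none of the 10 windows and in 7.86% of those of all genes.

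Of the 12 cores in these windows, 4 lay inside a region and 8 lay outside every region. In the same window over all protein-coding genes 233 of 965 cores, or 24.1%, lay inside a region, and the difference was not tested. The 4 inside belonged to 2 genes. They were the 3 of Isg15, which overlap each other, and the 1 of Ifih1, which lies 12 to 3 bp before its main TSS. The 8 outside belonged to 5 genes. In Rsad2 the core was 28 bp from the edge of the region that covers its TSS, and in Ifit1 the cores were 75 and 94 bp from the region upstream, all within 1 step of the grid. Ddx58 had its core 5 to 14 bp after the main TSS and 145 bp from the nearest region, also within 1 step. The cores of Usp18 were 641 and 665 bp from a region, more than 1 step of the grid, and those of Ifit3 were 11663 and 11697 bp away. Within 20 kb of the 10 start sites, with overlapping windows counted once, 31 of 104 cores were inside regions, which covered 15.3% of that sequence. Usp18 held 8 of the 31 and Rsad2 held 6. The share within 20 kb was not computed for all genes, so these values do not show a trait of the 10 genes, and no difference was tested.

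The CpG content of the start sites was counted as well. The ratio of observed to expected CpG in the same window had a median of 0.33 at the 10 genes and 0.55 over all protein-coding genes, and ranged from 0.06 at Ifit3 to 0.77 at Ifih1. At or under the all-gene median were 7 of the 10 genes, and by definition 11175 of the 22350 genes. The difference was not tested. Of all genes at or under the median ratio 24.1% were covered, 11.3% flanked and 64.5% bare, whereas of those over it 54.2% were covered, 34.4% flanked and 11.4% bare. The 7 antiviral genes at or under the median comprised 5 covered genes, Ifit1 as flanked and Ifit3 as bare, and the 3 over it were Ifih1, which was covered, and Ddx58 and Usp18, which were flanked. Genes with an ISRE core in the window were covered in 31.6% of cases, flanked in 18.6% and bare in 49.9%, against 39.4%, 23.0% and 37.5% of genes without one. The median CpG ratio of these groups also differed, at 0.32 with a core and 0.56 without, and its part in the shares was not tested.

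The other genes of the pathway were described by lists. Beside them, 39.1% of all protein-coding genes were covered and 76.4% had at least 1 region. Of 22 other antiviral effectors 16 were covered, and each had at least 1 region. Among them were Mx1, the paralog of Mx2, with 3 regions and 6.49 kb, and Oasl1, with 5 regions and 5.87 kb. The flanked effectors were Oas1b, Ifitm3 and Zc3hav1, and the bare ones were Oas1a, Ifi44 and Ifitm1. The median covered length of this list was 5.84 kb, close to the 5.93 kb of the 10 genes. Of 10 genes of RNA and DNA sensing 7 were covered, including Dhx58, which encodes the third RIG-I-like receptor LGP2 and had 4 regions and 11.4 kb. Mavs, the mitochondrial adaptor onto which RIG-I and MDA5 converge, and the kinase gene Tbk1 were flanked, and Tmem173 was bare.

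In the ISG15 pathway Uba7 and Ube2l6, which encode the activating and conjugating enzymes, were covered and the ligase gene Herc6 was flanked. Upstream in the pathway, 4 of 10 receptor and signalling genes were covered, namely Ifngr1, Stat2, Irf9 and Irf1, a share close to the 39.1% of all protein-coding genes. Irf9 had 4 regions and 17.6 kb, and Stat2 had 2 regions and 7.0 kb. Irf1 was covered at a TSS other than its main one, which lay 116 bp from a region. Ifnar1, Ifngr2, Jak1 and Jak2 were flanked, and Ifnar2 and Tyk2 were bare. The median covered length of this list was 6.90 kb.

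**Figure D5:**
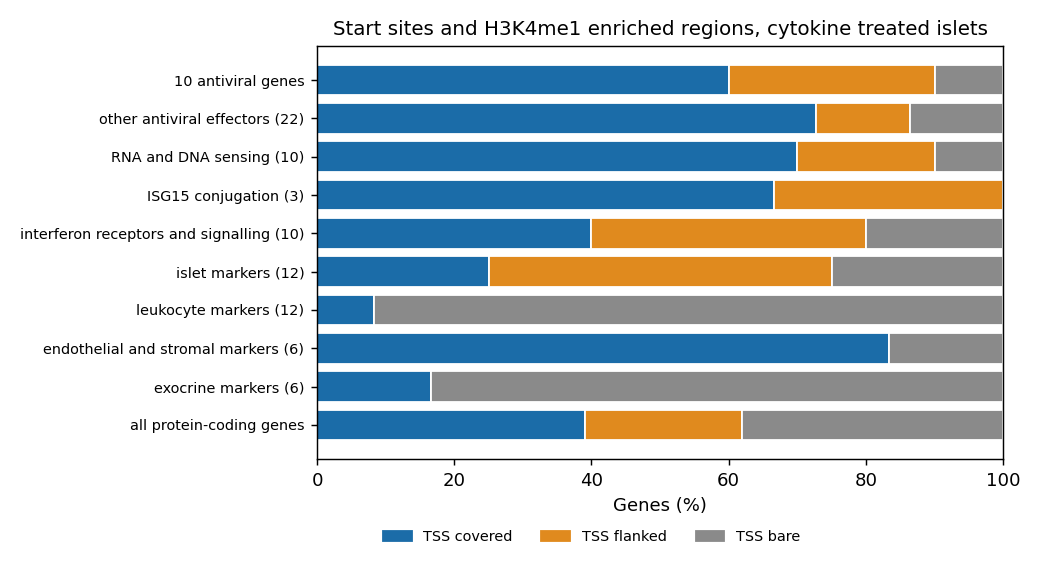
Percent of genes whose TSS was covered (blue), flanked (orange) or bare (grey) in each list, with the number of genes in parentheses, above all protein-coding genes. Of the 10 antiviral genes 60.0% were covered, and of all protein-coding genes 39.1%.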

How the data were processed

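The authors mapped reads of 1 pooled H3K4me1 library to mm9 with bowtie2 (Bowtie2 2.2.1 in the submitters' processing notes) and called enriched regions with ChromHMM, whose version and settings are not given in the sources used here. The deposited values are region positions, with no count or score, and whether a filter on low FPKM preceded this list is not stated. Regions were used as deposited with positions counted from 1, and compared with GENCODE M1 genes and the NCBIM37 genome. All 10 genes are named, as are genes that share a region with them, Cmpk2, Mx1, Oasl1, Dhx58, Stat2, Irf9 and, in each list, the genes of classes holding 5 or fewer. The genes and lists were chosen with earlier results of these data known, and the CpG and ISRE splits of all genes after the values were seen. Alternatives were region width, merging over 1000 bp, TSS sets, distance limits, motif length and window, and regions grown or shrunk by 200 bp. On simulated data 1500 of 1500 start site classes and 400 of 400 planted ISRE cores were recovered. The receptor and signalling list is given without 1 gene first placed in it, which is not reported here. RNA-seq values and untreated H3K4me1 were not analysed here. Python 3.11.15, numpy 2.4.6, scipy 1.17.1 and matplotlib 3.10.9 were used.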

Additional observations from a re-analysis of the deposited data

How the results depend on the processing

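With 1 library no replicate could be left out. No paired analysis was possible because the regions come from a single library. Of 55 alternative values for 8 results, 42 stayed within a factor of 1.5 of the value reported, or within its interval, and 13 did not. The median number of regions per gene was 2 with regions of at least 1000 bp, 2 within 10 kb, 6 within 50 kb, 2 when each region went to the closest TSS within 100 kb, and 2 with regions shrunk by 200 bp at each end. Within 50 kb 55 distinct regions were counted. The covered share of protein-coding genes was 35.7% with regions of at least 1000 bp, 40.3% after merging, 31.3% with the main TSS alone, 36.2% with protein-coding TSS, 43.1% with regions grown by 200 bp and 34.5% with regions shrunk. These follow from fewer, more or wider regions or fewer TSS. Growing left 1 flanked gene, as Ddx58 and Ifit1, whose edges lie at 140 and 161 bp, became covered. No other setting changed the class of any of the 10 genes. Growing and shrinking were chosen after the data were seen. The grid of 200 bp and the unknown depth and threshold limit every statement on a missing region.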
